A study of Mus musculus with 17 samples.

Results

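The genes described here belong to a pair of cytokine systems. Members of the interleukin-1 (IL-1) family and its receptors were Il1a, Il1b, Il1rn, Il1r1, Il1rl1 and Il33, and the colony-stimulating factors were Csf1, Csf2 and Csf3. These 9 genes were taken by name out of 35896 gene identifiers in each deposited count file. RNA sequencing was done on mouse pancreatic stellate cells, the fibroblast-like cells of the pancreas that take part in the stroma of pancreatic tumours. The cells were wild type, of the C57BL/6J strain, and came from the lines PSC4 and PSC5. All were kept in Matrigel, a basement membrane gel, and were treated for 4 days. The control group had plain control medium (5 libraries), and the TGF-beta group had control medium with 20 ng/mL TGF-beta (4 libraries). The CM group had medium conditioned by tumour organoids (4 libraries), and the neratinib group had that conditioned medium with 300 nM neratinib (4 libraries), an inhibitor of ERBB receptor kinases. No group had neratinib without conditioned medium. Values below are given for PSC4 first and then for PSC5 replicates 1 and 2. The PSC4 values are replicates 1, 2 and 3 in control, 2 and 3 under TGF-beta, and 1 and 2 in the groups with conditioned medium.

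Library totals ranged from 22168960 to 29421451 counts. Each line stood for 1 population of cells, and the replicate numbers followed the passage (23, 24 and 25 in PSC4, 27 and 28 in PSC5). No label names separate donors, so p-values measure the spread between these libraries, which may be technical. On the third principal component of all tested genes, the 3 libraries labelled PSC4 replicate 1 lay between -37.0 and -1.8, among the 8 PSC5 libraries (-36.2 to 3.6) and away from the 6 other PSC4 libraries (19.7 to 56.8). Calls of members that change without them are given below. All 8 stellate cell or fibroblast markers were detected in every group, with a summed level of 3580 to 15600 CPM (counts scaled to the library's total). Of 11 leukocyte markers, Adgre1, Tyrobp and Cd3e had no count in any library and Ptprc at most 1. The summed leukocyte level was 14.4 to 17.8 CPM in control, 7.99 to 9.16 in TGF-beta, 27.1 to 53.2 in CM and 35.9 to 68.2 with neratinib, most of it from Cd14. Of 4 mast cell markers, Cpa3, Mcpt4 and Tpsb2 had no count in any library.

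IL-1 alpha (Il1a) and IL-1 beta (Il1b) are inflammatory ligands that bind the receptor IL1R1, which recruits the accessory chain IL1RAP and signals through MyD88 and IRAK kinases to NF-kB. The antagonist encoded by Il1rn occupies the same receptor without signalling. IL-33 is a nuclear alarmin whose receptor ST2 is the product of Il1rl1, in a membrane form and a soluble form that gene counts do not separate. CSF1 (M-CSF), CSF2 (GM-CSF) and CSF3 (G-CSF) drive the growth and survival of macrophages, of granulocytes and macrophages, and of neutrophils. In pancreatic cancer, IL-1 from tumour cells is known to induce an inflammatory state of fibroblasts, and TGF-beta is known to oppose it.

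The promoters of 5 members are shown. In CM against control Il1rn, Il1rl1 and Il33 were higher and Csf1 was lower, and Il1a had counts only with conditioned medium. Each run is the 250 bases before the RefSeq start site nearest the gene's start (build GRCm38.p6), written 5′ to 3′ on the gene's strand. Capitals mark matches to the NF-kB consensus, to the AP-1 motif TGANTCA or to the STAT motif TTCNNNGAA, searched on both strands.
Il1a (chr2:129309973-129310222, minus strand): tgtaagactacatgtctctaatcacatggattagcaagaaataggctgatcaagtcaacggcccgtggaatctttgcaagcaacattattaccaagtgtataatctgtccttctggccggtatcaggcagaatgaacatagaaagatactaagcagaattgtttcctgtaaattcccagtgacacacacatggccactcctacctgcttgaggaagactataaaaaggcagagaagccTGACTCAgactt
Il1rn (chr2:24336610-24336859, plus strand): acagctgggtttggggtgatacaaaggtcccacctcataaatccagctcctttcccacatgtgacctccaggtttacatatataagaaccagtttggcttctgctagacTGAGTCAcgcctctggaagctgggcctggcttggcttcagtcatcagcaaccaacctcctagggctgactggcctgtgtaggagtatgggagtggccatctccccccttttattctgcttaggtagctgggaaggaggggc
Il1rl1 (chr1:40429320-40429569, plus strand): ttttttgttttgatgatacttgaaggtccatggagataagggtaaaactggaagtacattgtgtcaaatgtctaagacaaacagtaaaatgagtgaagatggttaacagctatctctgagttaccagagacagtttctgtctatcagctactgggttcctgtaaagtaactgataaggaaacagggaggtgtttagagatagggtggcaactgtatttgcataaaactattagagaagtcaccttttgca
Il33 (chr19:29924863-29925112, plus strand): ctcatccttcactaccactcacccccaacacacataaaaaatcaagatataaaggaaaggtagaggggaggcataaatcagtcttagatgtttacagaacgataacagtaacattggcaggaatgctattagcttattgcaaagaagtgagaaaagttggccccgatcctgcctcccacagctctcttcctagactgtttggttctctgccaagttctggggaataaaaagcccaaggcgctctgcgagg
Csf1 (chr3:107760470-107760719, minus strand): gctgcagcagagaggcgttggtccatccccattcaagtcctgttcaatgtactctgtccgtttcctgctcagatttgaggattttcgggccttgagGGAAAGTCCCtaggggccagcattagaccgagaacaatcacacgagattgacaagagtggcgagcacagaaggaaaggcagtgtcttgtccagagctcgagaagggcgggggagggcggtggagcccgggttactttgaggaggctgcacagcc
Il1a held an AP-1 match starting 12 bases before the start site, and Il1rn held one 141 bases before it. Csf1 held an NF-kB match 154 bases before its start. The Il33 and Il1rl1 windows shown held no match, which says only that these letters are not in these windows. RefSeq windows were found for 8 of the 9 members, 13 windows in all, and a second start site of Il1r1 held an NF-kB match 232 bases before it. The windows of the Il1rn start sites 8438 and 8518 bases from the gene's start held no match. Which start sites these cells use was not measured. Among 32851 windows of the same length over all genes, 7.25% held the NF-kB motif, 6.75% the AP-1 motif and 7.02% the STAT motif. No STAT match was found in the members' windows, and no motif overlapped another. A match is a description of the letters and not a binding site.

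Levels are compared between genes as CPM per kb of annotated exon. The length counts all annotated exons of a gene, so levels between genes depend on it. Which transcripts of a gene were made was not measured. In control medium Csf1 was highest at 121 ± 11.7 CPM per kb (SD, n = 5). Il1rl1 followed at 19.3 ± 2.20 and Il1r1 at 17.9 ± 4.77, and these neighbours did not differ beyond their spread. Il33 was at 5.11 ± 2.66 CPM per kb, Il1rn at 1.71 ± 1.02 and Csf2 at 0.134 ± 0.0686. Control libraries thus held transcripts of both receptors, of CSF1, of IL-33 and of the antagonist, with at most 5 counts per library for Il1a, Il1b, Csf2 and Csf3. In CM the level of Csf1 was 94.1 ± 11.9 CPM per kb (n = 4), and Il1rl1 (37.7 ± 5.72) and Il33 (32.4 ± 13.6) were neighbours within their spread. Il1r1 was at 21.4 ± 4.41, within the spread of Il33. Lower were Il1rn at 6.35 ± 2.79 and Csf3 at 3.05 ± 1.74, whose spreads overlapped. With neratinib Csf3 reached 12.7 ± 5.52 CPM per kb, within the spread of Il1rl1 at 15.3 ± 3.72.

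**Figure D1:**
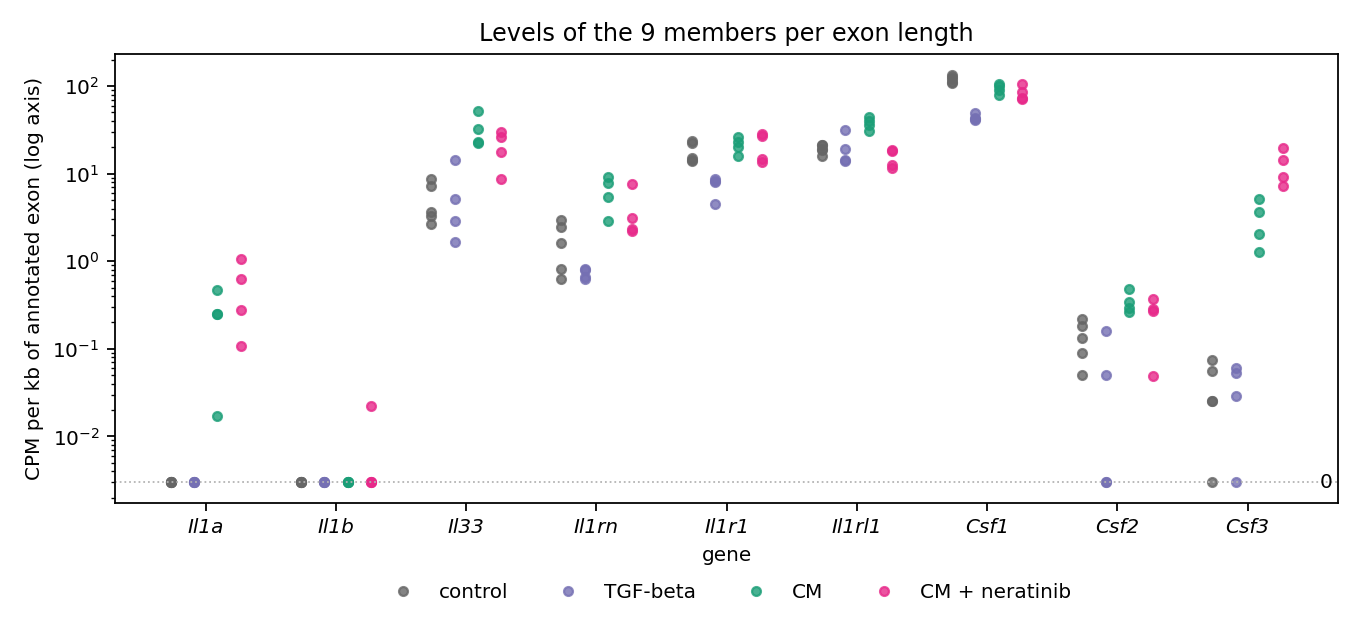
Level of each of the 9 genes in each library, as CPM per kb of annotated exon on a log axis, with 1 point per library coloured by group and libraries without a count drawn on the dotted line marked 0. Csf1 is the highest gene in all 4 groups, Il1b lies at 0 but for 1 library, and Il1a and Csf3 rise from near 0 only in the groups with conditioned medium.

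Of the 9 members, 7 passed the filter on low counts, and Il1b and Csf2 did not. Il1a and Csf3 passed it only through the groups with conditioned medium, where they are high, so they had to differ from control and TGF-beta, and their calls there support nothing. A gene is called when the Benjamini-Hochberg adjusted p of edgeR's quasi-likelihood test over 13923 genes is under 0.05. Against control, TGF-beta lowered 3 of the 5 tested members other than Il1a and Csf3 (Il1rn, Il1r1 and Csf1) and raised 0. Il1a and Csf3 had at most 3 counts per library in both groups, so they say nothing there. Over all genes 40.2% were called and 20.5% called lower, and the members were not tested as a set. Of the 5 tested members other than Il1a and Csf3, CM raised 3 (Il1rn, Il1rl1 and Il33) and lowered 1 (Csf1), where 14.2% of all genes were called, 7.05% higher and 7.14% lower. Of the same 5, CM with neratinib raised 1 (Il33) and lowered 1 (Csf1) against control, where 43.1% of all genes were called (22.2% higher, 20.9% lower), a share near the background. Adding neratinib to CM left Csf3 higher and Il1rl1 lower, 2 of 7 members, where 20.5% of all genes were called (10.8% higher, 9.63% lower). Without the 4 libraries coded T6, described below, Il1rn and Il33 were still called in CM against control and Il1rl1 and Csf1 were not, and 0 members were called for neratinib against CM. The same removal took the calls over all genes from 1976 to 1079 in CM against control, and from 2850 to 187 for neratinib against CM. With upper-quartile scaling factors, 37.5% of all calls in CM and 41.1% of those with neratinib against control were higher, against 49.7% and 51.4% with the factors used here. These are bulk samples, so fewer cells expressing a gene and less RNA per cell cannot be told apart.

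CM and TGF-beta were also set against each other; this comparison shares its CM and TGF-beta libraries with those above. The 5 tested members other than Il1a and Csf3 were all called higher in CM than in TGF-beta, where 35.3% of all genes were called and 17.8% were called higher. With neratinib, 4 of these 5 were called higher than in TGF-beta, Il1rl1 being the exception, where 44% of all genes were called and 23.1% called higher.

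**Figure D2:**
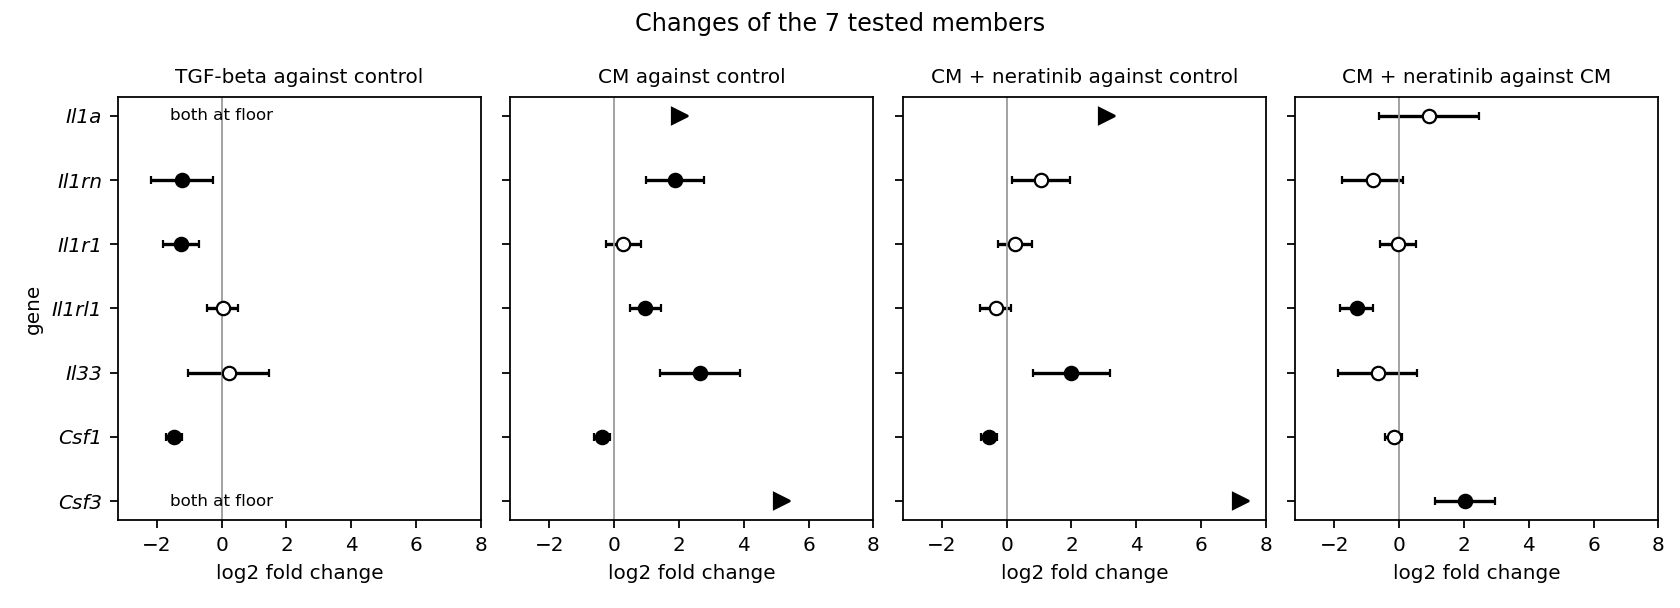
Fitted log2 fold change of the 7 tested genes in 4 comparisons, with 95% confidence intervals; filled points are called at an adjusted p under 0.05 and open points are not. Triangles are lower bounds for genes whose control libraries were all at or under 3 counts. Csf1 lies below 0 in every panel, and is not called between neratinib and CM. The lower bound of Csf3 lies furthest to the right in both comparisons of conditioned medium with control, and bounds do not rank it against Il1a.

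The IL-1 agonists were nearly silent. Il1a, on the minus strand of chromosome 2 at 129299610 to 129309972 (GRCm38), had 0 counts in all 9 control and TGF-beta libraries. In CM it had 1, 14, 13 and 28 counts, and with neratinib 5, 14, 49 and 27. Every library with conditioned medium had a count, but CM PSC4 replicate 1, with 1, lies under the 3 counts that a library at 0 allows. The level was low, at 0.491 ± 0.369 CPM in CM and 1.03 ± 0.843 CPM with neratinib (SD, n = 4). Taking 3 counts as the most a library at 0 allows, the mean of Il1a was at least 4.12-fold higher in CM than in control and at least 8.62-fold higher with neratinib. The log2 difference of neratinib from CM was 0.92 (SE 0.67, adjusted p = 0.38), with overlapping groups. Il1b, 129364570 to 129371139 on the same chromosome and strand, had 1 count in 1 neratinib library and none in the other 16, which allows up to 0.137 CPM in the library of least depth. Transcripts of the classical secreted agonist were not detectable at this depth in 16 of 17 libraries.

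Epithelial transcripts were higher than in control in 6 of the 8 libraries with conditioned medium. The summed level of 8 epithelial markers was 15.8 to 23.4 CPM in control and 14.8 to 20.2 in TGF-beta. It was 20.2, 175, 41.5 and 145 CPM in CM, and 9.70, 140, 50.2 and 311 with neratinib. CM PSC4 replicate 1 thus lay within the control range and neratinib PSC4 replicate 1 below it. Krt8, an epithelial keratin, had 12, 1233, 147 and 1173 counts in CM and 0, 972, 219 and 2052 with neratinib. High values fell in the 4 libraries whose labels carry the code T6, all replicate 2, where the replicate 1 libraries carry T8; the labels do not explain the codes. In the order given above, the libraries with the lowest epithelial sums, PSC4 replicate 1 of each group, also had the lowest Il1a counts, 1 and 5. The part of these transcripts in the Il1a values was not tested.

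**Figure D3:**
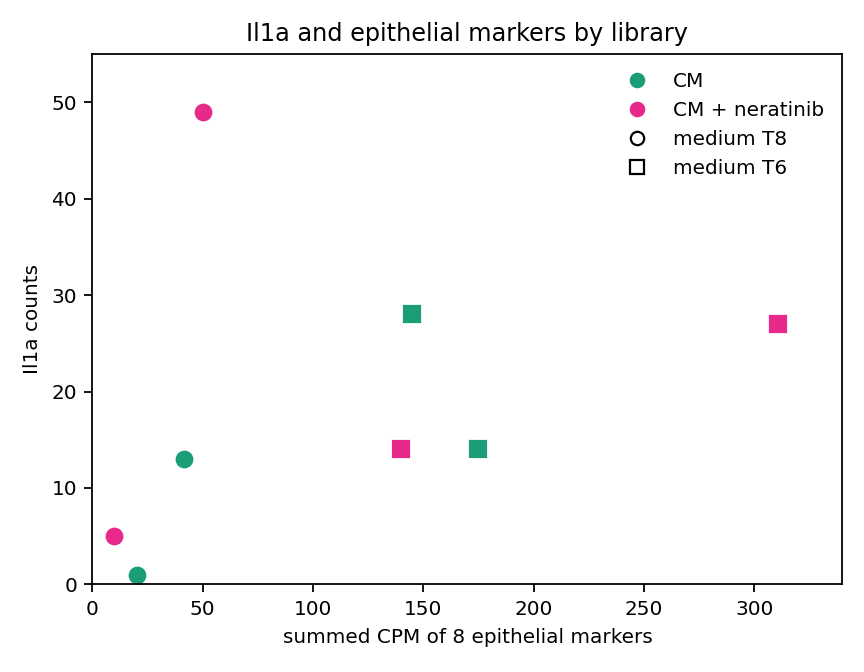
Il1a counts (vertical axis) against the summed CPM of 8 epithelial markers (horizontal axis) in the 4 CM and 4 neratinib libraries, 1 point each, with circles for code T8 and squares for T6. The lowest Il1a counts, 1 and 5, lie at the lowest epithelial sums, 20.2 and 9.70 CPM; the highest count, 49, lies at 50.2 CPM, and the library with 311 CPM has 27 counts.

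The receptor antagonist rose in CM. Il1rn (chromosome 2, 24336853 to 24351494, plus strand) was at 13.7, 3.50, 4.51, 16.4 and 9.04 CPM in control. TGF-beta libraries had 4.47, 3.47, 4.38 and 3.7 CPM. CM libraries had 43.7, 16.1, 50.9 and 29.7 CPM, and neratinib libraries 12.3, 12.8, 42.2 and 17.2. Of the CM libraries PSC4 replicate 2, and of the neratinib libraries both PSC4 ones, fell inside the range of control, and in control the high libraries were PSC5 and PSC4 replicate 1. The log2 fold change of CM over control was 1.87 (SE 0.42, adjusted p = 0.00958). Under TGF-beta Il1rn fell (log2 fold change -1.22, SE 0.45, adjusted p = 0.0396), all 4 libraries lying below the control mean. That call was lost without the PSC4 replicate 1 libraries (-0.85, adjusted p = 0.0873) and, leaving out single libraries, without control PSC4 replicate 1 (-0.87, adjusted p = 0.121), control PSC5 replicate 1, TGF-beta PSC4 replicate 3 or either PSC5 TGF-beta library. With neratinib Il1rn was 1.06 above control (SE 0.42, adjusted p = 0.0534), which became a call with the replicate number as a block (1.07, adjusted p = 0.0143) and without the PSC4 replicate 1 libraries (1.43, adjusted p = 0.0101). Neratinib against CM gave -0.82 (SE 0.44, 95% interval -1.75 to 0.11, adjusted p = 0.199).

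The signalling receptor fell under TGF-beta and was not called in CM. Il1r1 (chromosome 1, 40225080 to 40317257, plus strand) was at 87.9, 144, 150, 97.3 and 90.1 CPM in control. TGF-beta libraries had 52.4, 50.6, 55.7 and 28.8 CPM, all below every control library. CM libraries had 128, 167, 147 and 101 CPM and neratinib libraries 87.3, 179, 171 and 93.2. The log2 fold change of Il1r1 under TGF-beta was -1.25 (SE 0.26, adjusted p = 0.0014), and it stayed called in all 18 alternatives. Its differences from control were 0.29 in CM (SE 0.25, 95% interval -0.24 to 0.82, adjusted p = 0.48) and 0.27 with neratinib (SE 0.25, adjusted p = 0.409). Neratinib against CM gave -0.03 (SE 0.26, adjusted p = 0.958).

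The accessory chain rose with conditioned medium, where its partner Il1r1 was not called. Il1rap, the co-receptor shared by IL-1 and IL-33, was at 70.1 ± 11.8 CPM in control and rose to 155 ± 33.6 in CM (log2 fold change 1.19, SE 0.16, adjusted p = 0.000394) and 141 ± 38.6 with neratinib (1.04, SE 0.16, adjusted p = 0.000197). Under TGF-beta it was at 56.6 ± 8.85 CPM and was not called (-0.27, adjusted p = 0.198). Per kb of exon, the Il1rap level was 0.354 ± 0.0524 of that of Il1r1 in control (range 0.300 to 0.438). It was 0.705 ± 0.157 of it under TGF-beta (0.535 to 0.903), 0.639 ± 0.0726 in CM (0.567 to 0.708) and 0.622 ± 0.164 with neratinib (0.507 to 0.864). The range of each treated group lay above that of control. The size of the ratio depends on the exon lengths, as the control means in plain CPM were 70.1 for Il1rap and 114 for Il1r1. The Il1rn level was 0.110 ± 0.0781 of that of Il1r1 in control, 0.104 ± 0.0303 under TGF-beta and 0.310 ± 0.135 in CM, and these ranges overlapped. Il1r2, the decoy receptor, had 1 to 12 counts per library and was not tested.

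IL-33 and its receptor both rose in CM, and the receptor was lower again with neratinib. Il33 (chromosome 19, 29925114 to 29960718, plus strand) was at 10.6, 20.9, 25, 9.55 and 7.73 CPM in control. In CM it was at 92.4, 65.4, 149 and 66.7 CPM, and with neratinib at 50.6, 75.6, 85.4 and 25.4. Every conditioned medium library lay above every control library. The log2 fold change was 2.66 in CM (SE 0.58, adjusted p = 0.00833) and 2.00 with neratinib (SE 0.56, adjusted p = 0.0105), and neratinib against CM gave -0.66 (SE 0.57, adjusted p = 0.452). TGF-beta libraries had 14.9, 8.27, 40.9 and 4.76 CPM, a wide spread from both sides of control (0.21, SE 0.58, adjusted p = 0.801).

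Il1rl1 (chromosome 1, 40429570 to 40465415, plus strand) was even across control, at 148, 146, 110.0, 129 and 132 CPM. In CM it was at 246, 305, 276 and 213 CPM, above every control library, and with neratinib at 128, 126, 79.1 and 87.4, below every CM library. The log2 fold change was 0.97 in CM (SE 0.22, adjusted p = 0.011) and -0.34 for neratinib against control (SE 0.22, adjusted p = 0.233). Neratinib against CM gave -1.31 (SE 0.24, adjusted p = 0.00232), with the same direction in both lines (-1.11 in PSC4 and -1.56 in PSC5). Without the 4 T6 libraries both differences kept their size but not their call (0.95, adjusted p = 0.0606, and -1.31, adjusted p = 0.0896). TGF-beta libraries had 98.8, 97.0, 133 and 216 CPM; both PSC4 libraries lay below every control library, PSC5 replicate 1 was level with its controls, and PSC5 replicate 2 alone was above them. The Il1rl1 change under TGF-beta was -0.46 in PSC4 and 0.42 in PSC5, and the difference of 0.88 (SE 0.29, edgeR unadjusted p = 0.00969) had an adjusted p of 0.987. Without PSC5 replicate 2 the change over both lines was -0.28.

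**Figure D4:**
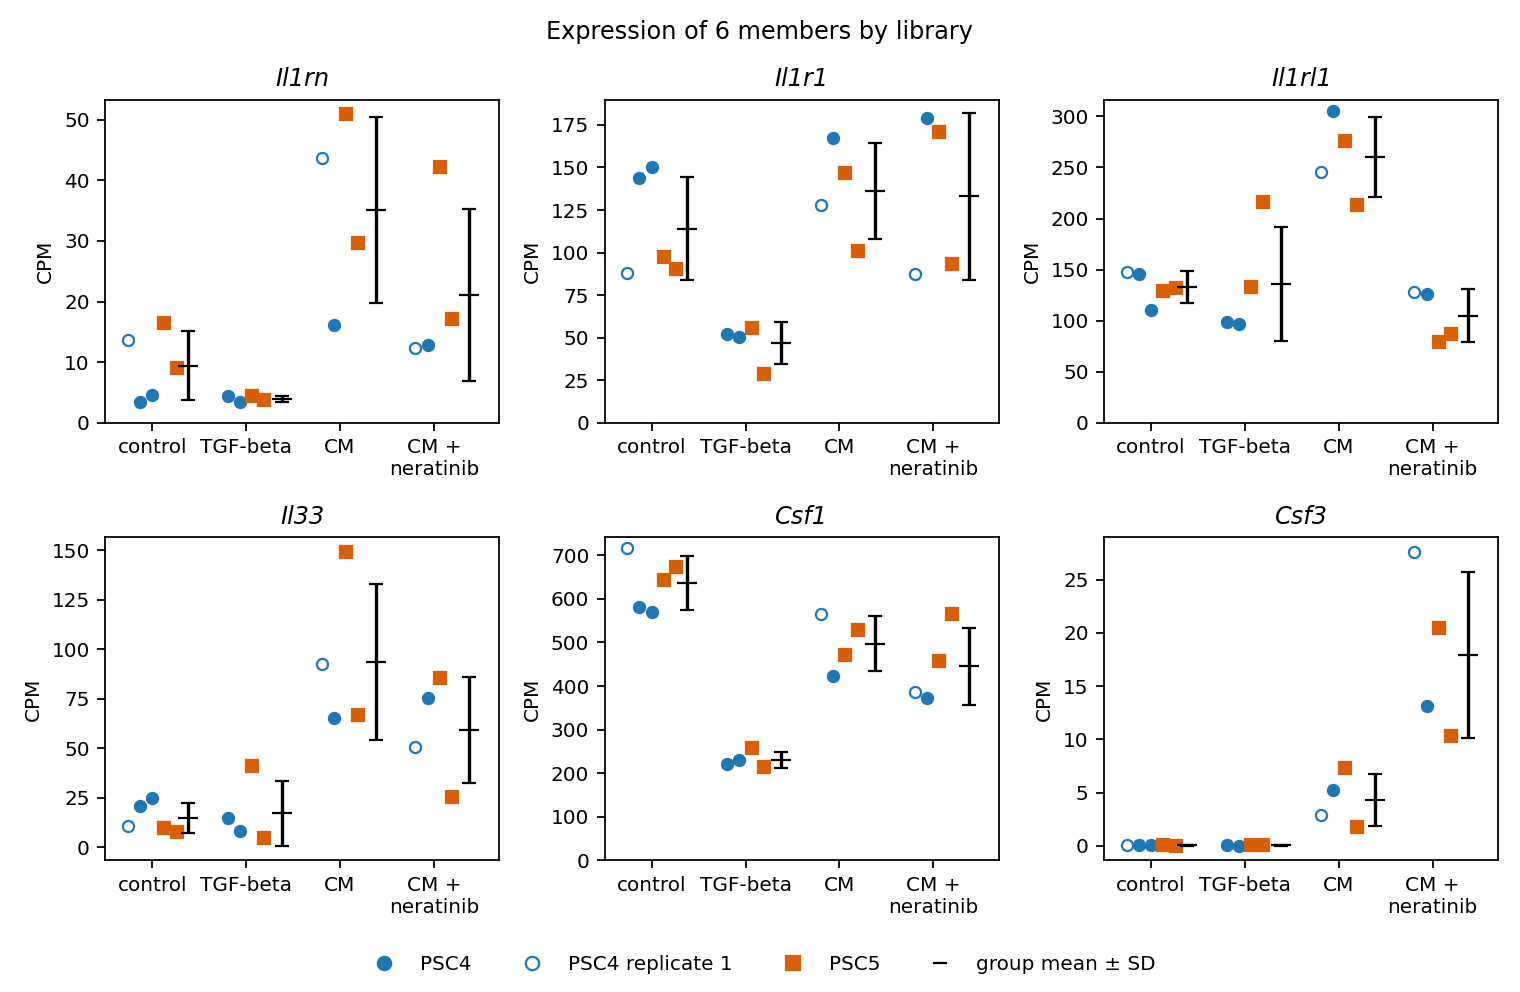
CPM of 6 genes in each library by group, on linear axes, with blue circles for PSC4 (open for replicate 1), orange squares for PSC5 and a bar for the group mean ± SD. Il33 and Il1rl1 are higher in all 4 CM libraries than in any control library, Csf1 is lowest in the TGF-beta libraries (214 to 257 CPM), and Csf3 is highest with neratinib (10.3 to 27.6 CPM).

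CSF1 was the main colony-stimulating factor transcript, and TGF-beta lowered it. Csf1 (chromosome 3, 107741048 to 107760469, minus strand) was at 716, 582, 569, 643 and 674 CPM in control and at 222, 230.0, 257 and 214 under TGF-beta. In CM it was at 565, 422, 472 and 529 CPM, and with neratinib at 387, 373, 457 and 565. All 3 treated groups lay below every control library. Under TGF-beta the log2 fold change of Csf1 was -1.48 (SE 0.12, adjusted p = 2.78e-07), the smallest p among the members in that comparison. Its change was -0.54 with neratinib (SE 0.11, adjusted p = 0.00178) and -0.37 in CM (SE 0.11, adjusted p = 0.0416). The CM call was lost in 10 of 19 alternatives, among them leaving out any 1 of the control libraries PSC4 replicate 1 or 2 and PSC5 replicate 1 or 2, or of the CM libraries PSC4 replicate 2 and PSC5 replicate 1 or 2 (adjusted p up to 0.164 over all 19). Neratinib against CM gave -0.17 (SE 0.12, adjusted p = 0.338).

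Csf3 had at most 3 counts per library without conditioned medium and at least 53 in each library that had it. Csf3 (chromosome 11, 98701263 to 98703629, plus strand) had 2, 1, 3, 1 and 0 counts in control and 2, 0, 2 and 1 under TGF-beta. In CM it had 86, 148, 191 and 53 counts (4.31 ± 2.46 CPM), and with neratinib 649, 337, 475 and 224 (17.9 ± 7.80 CPM). Each neratinib library was above every CM library, and each CM library above every control library. Against a control floor of 3 counts, Csf3 was at least 36.1-fold higher in CM and at least 150-fold higher with neratinib. Neratinib over CM was 2.04 on the log2 scale (SE 0.43, adjusted p = 0.00506), in both PSC4 (2.32) and PSC5 (1.77). That call was lost when the model held the compared groups alone (adjusted p = 0.0581) and without the T6 libraries (2.29, adjusted p = 0.0714). Per kb of exon, Csf1 exceeded Csf3 by 17.3 to 79.6 times in CM and by 3.75 to 14.7 times with neratinib.

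Csf2 (chromosome 11, 54247271 to 54249667, minus strand) stayed near the limit of detection. It had 1, 2, 3, 4 and 5 counts in control, 0, 0, 3 and 1 under TGF-beta, 8, 6, 10 and 7 in CM, and 7, 1, 5 and 5 with neratinib. The CM libraries lay above every control library, and the neratinib libraries overlapped both. The gene was not tested.

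Against TGF-beta, the differences of the members in CM were wide. On the log2 scale they were 3.10 for Il1rn (SE 0.48, adjusted p = 0.000156), 2.45 for Il33 (SE 0.61, adjusted p = 0.0056), 1.54 for Il1r1 (SE 0.27, adjusted p = 0.000442) and 1.11 for Csf1 (SE 0.12, adjusted p = 6.47e-06). Il1rl1 differed by 0.93 (SE 0.24, adjusted p = 0.00639), with 3 of 4 CM libraries above all TGF-beta libraries. Csf3 was at least 33.4-fold higher in CM than in TGF-beta. With neratinib the Il33 difference from TGF-beta was 1.79 (SE 0.60, adjusted p = 0.025), a call lost in 7 of 18 alternatives. Those were without TGF-beta PSC4 replicate 2, PSC4 replicate 3 or PSC5 replicate 2, without neratinib PSC4 replicate 2 or PSC5 replicate 1, without the T6 libraries, and when the model held the compared groups alone. Without TGF-beta PSC5 replicate 1, the highest TGF-beta library for Il33, the Il33 difference between CM and TGF-beta was 3.50.

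The other genes of the IL-1 family and its signalling moved in both directions. Of 29 ligands, receptors, regulators and adaptors, 22 were tested. TGF-beta raised 6 and lowered 3, 40.9% of the list and close to the 40.2% of all genes. Irak2, a kinase of the MyD88 complex, rose from 15.2 ± 1.24 to 43.4 ± 3.99 CPM (1.53, SE 0.18, adjusted p = 1.48e-05), and Il18rap, the IL-18 co-receptor, rose by 1.19 (adjusted p = 0.000344). Irak3, a brake on the same complex, fell by 1.28 under TGF-beta (SE 0.36, adjusted p = 0.0113), and Gsdmd, the pore former through which IL-1 beta leaves cells, fell by 0.81 (adjusted p = 8.09e-05). In CM 3 of the 22 rose and 0 fell, 13.6% against 14.2% of all genes: Il1rap, Il18rap (0.75, adjusted p = 0.0264) and the kinase gene Irak4 (0.27, adjusted p = 0.049), the last named after its value was seen. That count was 12 with the replicate number as a block, and 1 without control PSC5 replicate 1 or CM PSC5 replicate 1, so it depends on the fit. The list count was 5 without the PSC4 replicate 1 libraries. With neratinib 9 rose and 5 fell against control (63.6% against 43.1% of all genes), among them Irak3 (1.08, adjusted p = 0.0198) and Gsdmd (-0.84, adjusted p = 9.43e-05); 9 of the list were called without the T6 libraries. Neratinib against CM raised 2 and lowered 4, 27.3% against 20.5% of all genes. The count was 10 with the block (4563 of all genes) and 0 without the T6 libraries (187 of all genes). In the main fit of neratinib against CM, Irak2 was at 0.73 (adjusted p = 0.0174) and Il1rl2, the IL-36 receptor, at -0.69 (adjusted p = 0.0312). The median log2 change of the list was 0.03 under TGF-beta, 0.20 in CM and 0.23 with neratinib, against -0.02, 0 and 0.005 over all genes.

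Receptors for the colony-stimulating factors were scarce in these cells. Csf1r, the CSF1 receptor of macrophages, had 9 to 30 counts per library and was not called in CM (0.24, adjusted p = 0.634) or under TGF-beta (-0.28, adjusted p = 0.504). Csf2ra was at 3.55 ± 1.35 CPM in control and 3.39 ± 0.951 in CM and was not called in either comparison. Csf2rb, the shared beta chain, had 1 to 65 counts, and Csf3r had 0 to 1 in control and TGF-beta, 2 to 13 in CM and 0 to 6 with neratinib; neither was tested. The 9 tested genes of this list were Csf1r, Csf2ra, the second CSF1 receptor ligand Il34 and the signalling genes Jak2, Stat3, Stat5a, Stat5b, Socs3 and Cish. TGF-beta lowered 5 and raised 0 (55.6% called, against 40.2% of all genes). CM raised 4 and lowered 0 (44.4% against 14.2%), and CM with neratinib raised 3 and lowered 0 against control (33.3% against 43.1%). Cish, a STAT5 target, fell from 16.8 ± 1.94 to 6.00 ± 0.373 CPM under TGF-beta (-1.49, SE 0.20, adjusted p = 4.94e-05), and Stat5a fell by 0.90 (adjusted p = 0.00197). In CM the kinase gene Jak2 rose by 0.93 (SE 0.27, adjusted p = 0.0355) and Stat5a by 0.86 (SE 0.19, adjusted p = 0.00889). Socs3, a feedback inhibitor, rose by 0.80 in CM (adjusted p = 0.0129) and by 0.83 with neratinib (SE 0.19, adjusted p = 0.00299), both against control. The CM count was 2 without the T6 libraries and 1 without CM PSC5 replicate 1, and the neratinib count was 1 without control PSC4 replicate 1 or either PSC5 control.

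Of 25 genes known to respond to IL-1 and NF-kB in fibroblasts, all tested, 16 fell and 0 rose under TGF-beta (64% called, against 40.2% of all genes). CM raised 18 and lowered 0 (72% against 14.2%), and CM with neratinib raised 16 and lowered 0 against control (64% against 43.1%). This list, like the others above, was written with earlier results of these data known, so its shares are a description and not independent evidence. The median log2 change of the list was -1.38, 1.31 and 1.38, against -0.02, 0 and 0.005 over all genes. Saa3, an acute phase protein gene, went from 52.3 ± 55.6 CPM in control to 0.376 ± 0.340 under TGF-beta (adjusted p = 0.000175) and 2950 ± 1560 in CM (6.14, SE 0.82, adjusted p = 0.000391). Cxcl5, a neutrophil chemokine gene, fell from 15.2 ± 2.47 to 0.562 ± 0.425 CPM under TGF-beta (-4.80, SE 0.61, adjusted p = 2.59e-05), and the collagenase gene Mmp13 rose from 1.4 ± 1.24 to 35.0 ± 26.8 CPM in CM (4.89, SE 0.45, adjusted p = 1.65e-05). Adding neratinib to CM raised 2 and lowered 2 (16% against 20.5% of all genes). Il6, a cytokine gene, was 1.82 higher with neratinib (SE 0.41, adjusted p = 0.00717) and Lcn2 1.43 higher (SE 0.43, adjusted p = 0.0311), the direction of Csf3. Ccl2, a monocyte chemokine gene, fell by 0.74 (SE 0.20, adjusted p = 0.0181) and Tnfaip3, an NF-kB inhibitor, by 0.60 (SE 0.16, adjusted p = 0.0189). These 4 calls became 8 with the replicate block (4563 of all genes) and 0 without the T6 libraries (187 of all genes). They became 1 without CM PSC4 replicate 1 (1782 of all genes) and 2 without neratinib PSC5 replicate 2 (1748 of all genes).

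The tested genes most like each member were found by the correlation of log2 CPM over the 17 libraries, which share groups and lines. Csf1 was most like Smad3 (r = 0.981), Crim1 (0.980) and Dcxr (0.975). For Il1r1 they were Glis3 (0.977), N4bp2l1 (0.976) and Il6st (0.973), and for Csf3 Slc16a1 (0.962), Pdpn (0.960) and Krt80 (0.953). Il33 was most like Rftn1 (0.938), Fndc3a (0.924) and Adam17 (0.921), and Il1rn like Kcnk10 (0.934), Dtwd1 (0.931) and Egfr (0.924). Il1rl1 had no gene above 0.838, held by Sf3b3, and its highest r with another member was 0.325, with Il1rn. Il1a, a low count gene, was most like Ppbp (0.925), Rdh10 (0.923) and Gpa33 (0.916). Among the members themselves the highest r was 0.864, between Il1a and Csf3. Both had at most 3 counts in every control and TGF-beta library. That shared floor raises r, so the value does not show that they vary together within the groups with conditioned medium.

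The cell lines, as labelled, gave like directions for the larger changes. In CM and with neratinib, PSC4 was replicates 1 and 2, and replicate 1 lay among PSC5 on the third principal component. In CM against control, the log2 change of Il33 was 2.07 in PSC4 and 3.64 in PSC5, that of Il1rn 2.05 and 1.66, that of Il1rl1 1.03 and 0.91, and that of Csf1 -0.33 and -0.40. Under TGF-beta, Il1r1 changed by -1.30 and -1.15 and Csf1 by -1.46 and -1.48, while Il33 was at -0.70 and 1.4, the last with PSC5 replicate 1 at 40.9 CPM, above both PSC5 controls, and replicate 2 at 4.76, below both. The PSC4 changes under TGF-beta include control PSC4 replicate 1, which has no TGF-beta library of its number. For Il1r1 (87.9 CPM) and Il33 (10.6 CPM) that library lay near the PSC5 controls and below the other PSC4 controls. In 4 interaction tests by edgeR's quasi-likelihood fit, 0 of all 13923 genes had a called difference between lines, so these tests do not show that the lines respond alike; 1 member was at an unadjusted p under 0.05 (Il1rl1 under TGF-beta, above). Between the codes T6 and T8, too, 0 of 13923 genes were called, and that test says nothing of the members.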

How the data were processed

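The deposited files give estimated counts per gene identifier for each of 17 libraries. Per the submitters' processing notes, Salmon 1.4.0, DESeq 2, GRCm38 and mm10 were used, with no role given; that the values are estimated (expected) counts is read from 74.8% of the values above 0 not being whole. RNA was taken up in TRIzol and Illumina mRNA libraries were made, per the labels' protocols. The deposited counts were rounded to whole numbers, which changed no library total by more than 300.9. Of 35896 identifiers, 35437 had a symbol in the annotation.

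All 17 libraries were fitted in 1 model with group and cell line, by the quasi-likelihood test of edgeR 4.0.16 (R 4.3.3) with TMM factors. The filterByExpr filter (10 counts, 15 in total) left 13923 genes, and the coefficient of variation was 19.8%. A library's CPM is its count over its total times the TMM factor. Where all libraries of a group had at most 3 counts, a lower bound was computed against 3 counts in the library where these give the highest CPM. Intervals are 95% intervals of the fit. The scripts were tested on simulated data.

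Libraries of different groups with the same line and number share a passage in the labels. All 22 such pairs deviated together (r 0.12 to 0.635, median 0.299, against -0.076 for another number of the same line), so the numbers pair them. The main fit leaves this pairing out, and its p-values and counts of calls do not use it. The replicate block among the alternatives does.

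Named genes were all 9 members, the receptors Il1r2, Il1rap, Csf1r, Csf2ra, Csf2rb and Csf3r, and per comparison and list up to 2 called genes with the largest rise and fall at 5 CPM or more. For likeness, 3 genes with the highest r were named. The members and the lists were chosen with earlier results of these data known. The 4 IL-36 genes of the lists were matched by RefSeq synonyms. Alternatives were DESeq2 1.42.0, other scaling factors, no filter, a replicate block, no line term, only the compared groups, and leaving out single libraries, the PSC4 replicate 1 libraries or, chosen after seeing the data, the T6 libraries.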

Additional observations from a re-analysis of the deposited data

Results flagged for a closer look

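Of 49 groups of 4 or 5 libraries examined, 1 held a library far from the others. Il1rn in neratinib PSC5 replicate 1 was at 42.2 CPM (976 counts), while the other 3 neratinib libraries were at 12.3 to 17.2 CPM. The gap was 0.838 of the group's range, above Dixon's 95% critical value for 4 libraries. Chance alone marks about 1 group in 20.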

How the results depend on the processing

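Of 751 values of single members under the alternatives, 698 kept their direction and their side of the threshold, 30 lost the call, 8 gained it and 15 changed sign, none of the last being called. The 751 include Il1a and Csf3 in conditioned medium against control and TGF-beta. The filter fixed those outcomes in advance, so they add to the number kept without supporting it. With Il1a and Csf3 counted, members called for neratinib against CM were 1 with only the compared groups fitted and 0 without the T6 libraries, and 3 were called for CM against control without the T6 libraries. Under TGF-beta, Il1rl1 was at -0.011 with upper-quartile factors, -0.046 with only the compared groups and -0.28 to 0.20 without single libraries, and Il33 was at -0.066 with the replicate block and -0.69 to 0.52 without single libraries. For neratinib against CM, Il1r1 was at 0.093 without the PSC4 replicate 1 libraries and -0.26 to 0.17 without single libraries. For T6 against T8 with no replicate block, Il1rl1 was at 0.003, Il33 at -0.65 and Csf1 at -0.001. The cause was not tested, beyond fewer libraries. With the replicate block, and with Il1a and Csf3 counted, the calls were 3 under TGF-beta, 6 in CM and 2 for neratinib against CM, as in the main fit. They were 5 with neratinib against control, from 4 in the main fit, Il1rn joining. The block changed no other member's call. With it, 7091 of 13923 genes were called under TGF-beta and 7300 with neratinib against control, from 5598 and 5998. Over all genes, calls in CM against control went from 1976 to 3240 with the block, 2986 with the PSC4 replicate 1 libraries counted as PSC5, 1079 without the T6 libraries and 801 to 1793 without single libraries. For neratinib against CM they went from 2850 to 4563 with the block, 602 with only the compared groups, 187 without the T6 libraries and 1748 to 3685 without single libraries. With upper-quartile factors the share of calls that were higher was 37.5% against 49.7% in CM and 41.1% against 51.4% with neratinib, both against control. The IL-1 signalling list held 1 to 12 calls in CM, where 801 to 3240 of all genes were called. It held 0 to 10 for neratinib against CM (187 to 4563 of all genes) and 9 to 15 with neratinib against control (4463 to 7300 of all genes). Il1b and Csf2, with 0 to 1 and 0 to 10 counts per library, were too low to test at this depth.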
